A study of Mus musculus with 18 samples.

Results

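The albumin gene family was examined in mouse fibroblasts made to express neuronal transcription factors. Its members were taken by symbol from the authors' deposited table of fibroblast gene expression. All 4 were found there, Gc (ENSMUSG00000035540), Alb (ENSMUSG00000029368), Afp (ENSMUSG00000054932) and Afm (ENSMUSG00000029369), among 35734 genes listed. The family was chosen by the measured log2 fold change of Gc in this same comparison, so its fold changes are given as a description, with no test. The series held 18 samples, of which 6 fibroblast RNA-seq libraries and 2 retina ATAC libraries are used here. Mouse embryonic fibroblasts of C57BL/6 background with the R26-M2rtTA allele, which supplies the doxycycline-dependent activator, carried lentiviral vectors switched on by doxycycline. In the first group the vectors encoded Brn2 and Myt1l, and in the second Brn2, Myt1l, Ikzf1 and Ikzf4, each with 3 libraries after 48 h (2 days) of doxycycline. Brn2 and Myt1l were thus present in both groups, and no group without any vector entered the comparison. The labels do not say that replicates were separate cultures, so p-values measure only the spread among these libraries. The libraries without Ikzf1 and Ikzf4 held 34966344 to 44270426 estimated reads, and those with them 38910839 to 41871989. The retina libraries came from 1 control carrying mCherry (GLAST-CRE ERT2 ; RosaYFP, C57BL/6, labelled Muller glia) and 1 Ikzf1/4 sample, whose labels repeat its title where tissue and genotype would stand. Both are described with tamoxifen and 14 days, while the run names in the file headers carry 48 h, and which time applies is not settled by the sources used here.

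Proteins of the albumin family are secreted, disulfide-rich carriers of blood plasma that arose by gene duplication. Gc encodes the vitamin D binding protein, which carries vitamin D metabolites and also binds monomeric actin released into plasma. Alb encodes serum albumin, the most abundant plasma protein and a carrier of fatty acids. Afp encodes alpha-fetoprotein, the albumin-like protein of yolk sac and fetal liver, and Afm encodes afamin, a carrier of vitamin E. The liver is the main source of all of these proteins, where FOXA and C/EBP factors act on their genes, and fibroblasts are not known as a source of albumin or alpha-fetoprotein.

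In the RefSeq annotation of GRCm38.p6 the 4 genes lie on chromosome 5. Gc occupies 89417511 to 89457898 on the minus strand. Alb (90460870 to 90476602), Afp (90490714 to 90508907) and Afm (90518949 to 90553544) follow on the plus strand as neighbours, with 14.11 kb between Alb and Afp and 10.04 kb between Afp and Afm. A distance of 1003 kb separates Gc from Alb, and Npffr2, Adamts3, Cox18 and Ankrd17 lie within it. Because the 4 genes differed so much in reads, the 250 bases before each RefSeq start site are printed 5′ to 3′ in the direction of transcription, from chr5:89457899-89458148 (Gc, minus strand), chr5:90460620-90460869 (Alb, plus strand), chr5:90490464-90490713 (Afp, plus strand) and chr5:90518699-90518948 (Afm, plus strand). Capitals mark matches on either strand to TGGGAA and to TATAAA, the letters of a TATA box. TGGGAA is a form of the letters bound by Ikaros-type zinc fingers such as those of Ikzf1 and Ikzf4.
Gc: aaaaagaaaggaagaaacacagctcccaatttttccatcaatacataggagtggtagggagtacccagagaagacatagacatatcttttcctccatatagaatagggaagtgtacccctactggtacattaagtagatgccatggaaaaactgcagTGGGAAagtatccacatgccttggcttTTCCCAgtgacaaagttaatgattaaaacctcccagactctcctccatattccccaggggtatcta
Alb: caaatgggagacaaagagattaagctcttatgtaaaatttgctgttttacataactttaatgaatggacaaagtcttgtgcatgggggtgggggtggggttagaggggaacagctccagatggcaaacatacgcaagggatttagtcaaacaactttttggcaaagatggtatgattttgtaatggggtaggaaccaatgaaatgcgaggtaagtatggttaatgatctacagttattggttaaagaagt
Afp: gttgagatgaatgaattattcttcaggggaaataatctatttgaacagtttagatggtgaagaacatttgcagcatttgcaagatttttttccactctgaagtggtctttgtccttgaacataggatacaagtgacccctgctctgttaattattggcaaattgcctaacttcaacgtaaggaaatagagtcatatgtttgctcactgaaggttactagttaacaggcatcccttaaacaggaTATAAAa
Afm: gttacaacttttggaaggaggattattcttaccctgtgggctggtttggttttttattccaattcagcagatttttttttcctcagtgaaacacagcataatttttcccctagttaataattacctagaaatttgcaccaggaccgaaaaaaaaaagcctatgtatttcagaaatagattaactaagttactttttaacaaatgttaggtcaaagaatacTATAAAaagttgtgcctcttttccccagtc
TGGGAA occurred at 2 places in Gc (-93 to -88 on the plus strand of the printed sequence and -66 to -61 on the other) and not in the windows of Alb, Afp and Afm. The shorter GGGAA, which is part of TGGGAA, occurred on one strand or the other in the window of every member. The difference between Gc and the others thus holds only for the exact letters chosen. Among the 6 neighbours with a promoter in the table it occurred once, in one of the 2 windows of Slc4a4 (-128 to -123, on the other strand). Of 32851 RefSeq promoters of the same length, 21.6% held at least 1 such match and 2.77% at least 2. TATAAA occurred at -7 to -2 in Afp, at -30 to -25 in Afm and in 12.4% of promoters. The window of Alb held neither motif. These motifs do not overlap one another in the printed windows. A match describes letters and no binding was measured here.

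Gc was the member with substantial expression. Its estimated reads were 1280.8, 1216.5 and 1837.4 in the libraries with Brn2 and Myt1l alone, and 139.1, 167.0 and 192.2 in those with Ikzf1 and Ikzf4 added. Every library of the first group lay above every library of the second. The main transcript of Gc was sought only among transcripts that fell, so this separation was partly set by the search. Scaled by library depth (CPM, with TMM library scaling), Gc was at 30.71, 35 and 42.02 without and at 3.351, 4.316 and 4.597 with the added factors. The means were 35.91 ± 5.71 and 4.088 ± 0.653 CPM (SD, n = 3), a ratio of 8.784. The spread relative to the mean was alike in the groups, 15.91% and 15.98%. Among transcripts and matched genes that passed the filter on low counts, 15.1% separated the groups without overlap in this downward direction.

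The edgeR log2 fold change of Gc was -3.13 (SE 0.17), given without a p because this contrast chose the gene. In the authors' deposited table it was -2.88 (SE 0.13) at a mean of 820.5 normalised reads. That was the lowest log2 fold change among the 16757 genes with an adjusted p in the authors' deposited table, whose median was -0.0004. Gc was the 1 member of 4 with an adjusted p there. Because its fold change in this contrast chose it, its place past any threshold was fixed by that choice and nothing is read from it. For scale, 15.4% of tested genes in the authors' deposited table were called lower at the threshold of 0.05 and 30.6% in either direction, and 2.15% were called with an absolute log2 fold change over 1. By edgeR, 2.87% of transcripts and matched genes were called lower. Of the genes tested, 53.5% had a lower mean than Gc in the authors' deposited table. Since low-count genes keep little of their ratio in that table, as given further on, the rank of Gc holds for the deposited values only. Its reads came almost wholly from one transcript, ENSMUST00000049209.12. A second, ENSMUST00000200534.1, held 18.4 reads in replicate 3 without the added factors and 0 in the other libraries. In bulk RNA, fewer cells expressing a gene and less RNA per cell cannot be told apart.

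Alb, Afp and Afm were at the edge of detection in all 6 libraries. Values per library of these genes and of Gc rest on pairing transcripts with genes by value. Many pairs came close for Afp and Afm, which leaves their values per library uncertain. For Gc the search was smaller and limited to transcripts that fell, so certainty was not compared alike. Alb had 2, 2 and 0 reads without Ikzf1 and Ikzf4, and 3, 0 and 1 with them. Afp had 3, 1 and 2 reads without, and 3, 5 and 1 with. The groups overlapped for both genes. Afm had 0, 0 and 1 reads without, and 3, 2 and 5 with. The groups of Afm did not overlap, a pattern that 16.1% of features passing the low-count filter showed in the upward direction. Afm itself did not pass that filter, nor did Alb or Afp, so 1 of 4 members passed. A library in which 0 reads were found allows up to 3, which is 0.0686 to 0.0863 CPM in these libraries.

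Over each group Alb had 4 reads without and 4 with the added factors, a ratio of 0.982 after scaling (95% counting interval 0.183 to 5.27). Afp had 6 and 9 reads, a ratio of 1.47 (0.468 to 5.03), so a difference within that range was not detectable at this depth. Afm had 1 and 10 reads, a ratio of 9.82 (1.4 to 425.9). These intervals cover counting error only, and not the spread between replicates. The reads of Alb, Afp and Afm together stayed below those of Gc in every library.

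Per length, in TPM, which divides reads by transcript length and depth, the order of levels without the added factors was Gc (39.63 ± 7.1), Afp (0.0457 ± 0.0207), Alb (0.0334 ± 0.0293) and Afm (0.00584 ± 0.0101; SD, n = 3). With them it was Gc (4.492 ± 0.73), Afp (0.116 ± 0.124), Afm (0.073 ± 0.0342) and Alb (0.0309 ± 0.0354). Gc was first in both groups, while the range of Alb overlapped those of Afp and Afm in both groups. The TPM of Afp in replicate 2 with the added factors, 0.257, stood above the 0.0229 and 0.0684 of the other libraries of its group. The plot of reads by library shows the difference in scale between Gc and the other members.

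**Figure D1:**
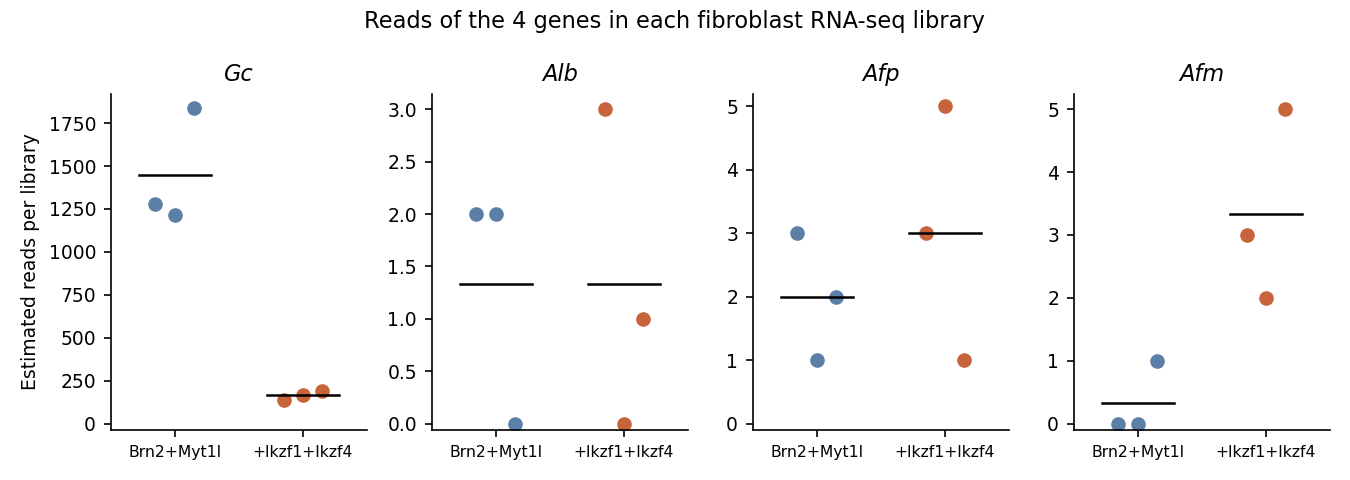
Estimated reads (vertical axis, own scale per gene, from 0) of Gc, Alb, Afp and Afm in each RNA-seq library with Brn2 and Myt1l alone (blue) or with Ikzf1 and Ikzf4 added (orange), with the mean of 3 libraries as a bar. Gc lay between 1216.5 and 1837.4 reads without and between 139.1 and 192.2 with the added factors, while no library held more than 5 reads of Alb, Afp or Afm.

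The authors' deposited table lists log2 fold changes of -0.01 (SE 0.10) for Alb, 0.11 (SE 0.14) for Afp and 0.17 (SE 0.11) for Afm, each without an adjusted p. The means there were 1.355, 3.046 and 1.821 normalised reads, below the lowest mean with an adjusted p, 3.615. For Afm, the log2 ratio of mean normalised reads between the groups was 3.38, against the 0.17 in the authors' deposited table. For Gc the same pair of values was -3.17 and -2.88. Across genes matched to transcripts whose log2 ratio exceeded 0.5 in size, the median share of that ratio kept in the authors' deposited table was 0.063 at means of 1 to 5 (1251 genes), 0.551 at means of 20 to 100 (298 genes) and 0.966 at means of at least 1000 (48 genes). The small log2 fold changes listed for Alb, Afp and Afm in the authors' deposited table therefore say little about how many-fold their reads differed.

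**Figure D2:**
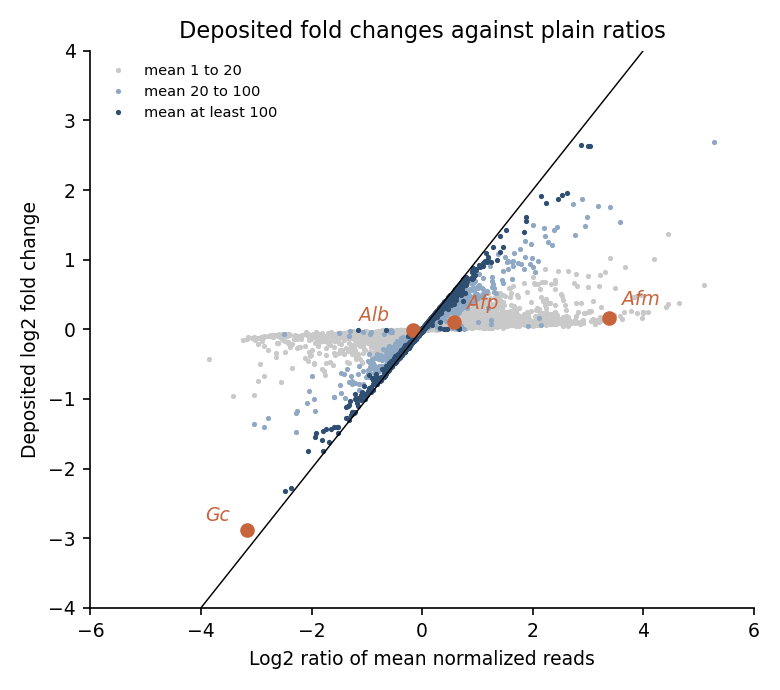
Log2 fold change in the authors' deposited table (vertical axis) against the log2 ratio of mean normalised reads recomputed from the libraries (horizontal axis) for matched genes with a mean of at least 1, coloured by mean and shown within the axis limits, with the 4 members in orange and the line of equality. Gc lay near the line, at -3.17 and -2.88, whereas Afm lay far from it, at 3.38 and 0.17.

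No listed gene beside the family on chromosome 5 was called lower, and the number that could be assessed was small. Of the 7 listed neighbours, 5 had an adjusted p in the authors' deposited table, of which 2 were called higher and 0 lower, beside background shares of 15.3% higher and 15.4% lower. Their median was 0.235 in the authors' deposited table. Slc4a4, the sodium bicarbonate cotransporter gene next to Gc on the side away from Alb, stood at 1.18 (SE 0.14) in the authors' deposited table, a rise with a DESeq2 adjusted p of 2.6e-15. Rassf6, a Ras association domain gene beyond Albfm1, was higher there by 0.40 (SE 0.14, DESeq2 adjusted p 0.01995). Between Gc and Alb, the values in the authors' deposited table were 0.24 (SE 0.22) for the procollagen protease gene Adamts3, 0.16 (SE 0.12) for the mitochondrial assembly gene Cox18 and -0.05 (SE 0.06) for the ankyrin repeat gene Ankrd17, none of which passed the threshold. Npffr2, a neuropeptide FF receptor gene, and Albfm1, an albumin-like gene beside Afm, had means of 0.343 and 0.819 and no adjusted p in the authors' deposited table. With an absolute log2 fold change over 1 required as well, 1 of the neighbours remained called, Slc4a4.

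**Figure D3:**
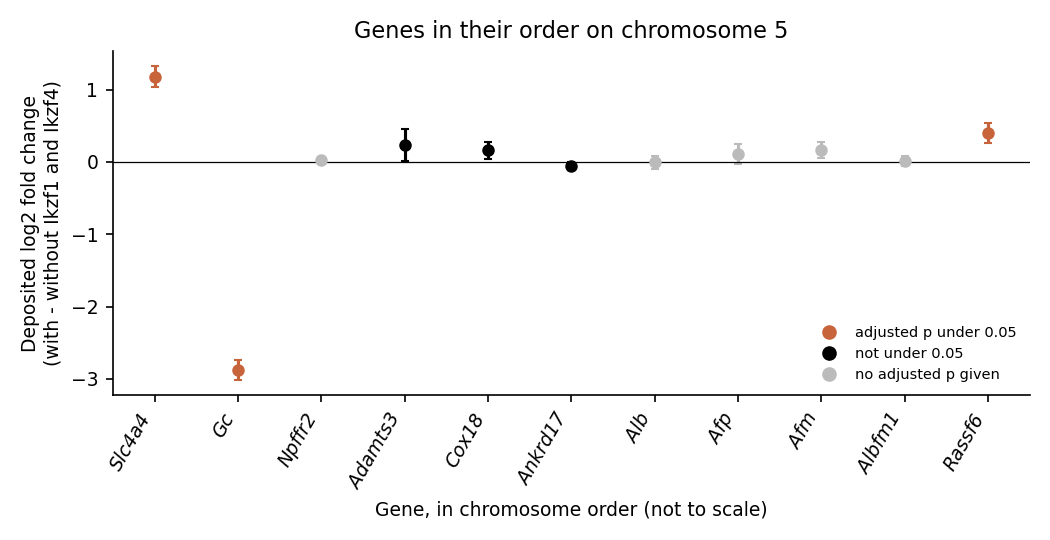
Log2 fold change with its standard error in the authors' deposited table (vertical axis, with minus without Ikzf1 and Ikzf4) for the family and its neighbours in chromosome order (horizontal axis, not to scale), with orange for an adjusted p under 0.05, black for a higher adjusted p and grey for none given. Gc at -2.88 stood next to Slc4a4 at 1.18, with the other genes between -0.05 and 0.40.

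The genes whose levels across libraries were most like those of Gc were ranked over the 1114 matched genes that averaged 5 CPM or more, by Pearson correlation of log2(CPM + 0.5) over the 6 libraries. The highest were Maoa, encoding monoamine oxidase A (0.997), Fibin (0.996), Gm3512 (0.995), Scpep1, encoding a serine carboxypeptidase (0.994), and Tceal1 (0.994). These values share libraries and scaling, and with 2 groups they mostly restate the difference between the groups. Within the 3 libraries without the added factors the correlations with Gc ran from 0.205 for Fibin to 0.992 for Tceal1. Within the 3 libraries with them they ran from 0.364 for Scpep1 to 1 for Gm3512, with Fibin at 0.995. Correlations over 3 libraries vary widely, so nothing is read from their order. The falls differed in size. Maoa went from 210.1 ± 9.4 to 134.5 ± 3.62 CPM, Fibin from 54.08 ± 3.98 to 10.7 ± 0.833 CPM and Scpep1 from 1048 ± 62.6 to 429.4 ± 4.69 CPM (SD, n = 3). Their log2 fold changes in the authors' deposited table were -0.67, -2.28 and -1.31.

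Genes that work with vitamin D binding protein were called lower about as often as genes in general. Among 14 genes of vitamin D carriage and metabolism, all with an adjusted p in the authors' deposited table, 0 were called higher and 2 lower (14.3%, against 15.4% of all tested genes called lower and 30.6% in either direction), with a median of 0.005. The calls in the authors' deposited table were Dab2, an adaptor of megalin endocytosis (-0.50, SE 0.08, DESeq2 adjusted p 1.2e-09), and Rxra, the dimer partner of the vitamin D receptor (-0.23, SE 0.05, DESeq2 adjusted p 0.0001709). Neither exceeded an absolute log2 fold change of 1. The receptor gene Vdr was at 2.421, 2.503 and 2.058 CPM without and at 2.002, 1.682 and 2.323 CPM with the added factors, so the groups overlapped. Its log2 fold change in the authors' deposited table was -0.19 (SE 0.19). Cyp24a1, which encodes the vitamin D degrading enzyme and is a direct target of the receptor, was at 0.551, 0.144 and 0.457 CPM without and 0.482, 0.750 and 0.837 CPM with. The groups overlapped here too, and the authors' deposited table gave 0.31 (SE 0.22).

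The receptors that take up the complex of vitamin D and its carrier were expressed at low levels. For Lrp2, encoding megalin, the authors' deposited table gave 0.33 (SE 0.20) at a mean of 115.9. Cubn, encoding cubilin, was at 4.496 ± 0.634 without and 4.674 ± 0.174 CPM with the added factors (SD, n = 3), and at 0.02 (SE 0.15) in the authors' deposited table. Of the enzymes that make active vitamin D, Cyp2r1 (0.32, SE 0.21), Cyp27a1 (-0.39, SE 0.22) and Cyp27b1 (-0.15, SE 0.19) did not pass the threshold in the authors' deposited table.

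A list of 9 genes of albumin uptake and plasma actin scavenging shares Lrp2, Cubn and Amn with the list above and includes genes of actin itself. Of these 9, 0 were called higher and 4 lower in the authors' deposited table (44.4% called lower, against 15.4% of all tested genes called lower and 30.6% in either direction), with a median of -0.083. Their median mean was 22415.52 normalised reads, against 676.0 over all tested genes. The shares are thus not compared at like levels of expression, and nothing is read from their difference. Fcgrt, encoding the heavy chain of the neonatal Fc receptor that rescues albumin from degradation, had the largest of these falls in the authors' deposited table (-0.65, SE 0.10, DESeq2 adjusted p 1.06e-09). Its light chain gene B2m was at 703.7 ± 59.8 without and 812.5 ± 40.4 CPM with the added factors (SD, n = 3), and it did not pass the threshold in the authors' deposited table (0.16, SE 0.07, DESeq2 adjusted p 0.05135). Sparc, a secreted albumin-binding matrix protein gene (-0.23, SE 0.06), and the cytoplasmic actin genes Actg1 (-0.25, SE 0.06) and Actb (-0.18, SE 0.06) were the other calls in the authors' deposited table. Gsn, encoding gelsolin, the other actin scavenger of plasma, was at -0.08 (SE 0.05) in the authors' deposited table and did not pass. None of the 4 falls exceeded an absolute log2 fold change of 1.

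Several transcription factors that act on genes of the family in liver were higher with the added factors. Whether any of them acts on Gc was not tested, and some of those listed repress Afp. Of 20 examined, 17 had an adjusted p in the authors' deposited table. Of these, 7 were called higher and 2 lower, with a median of 0.231. That is 52.9% called, against 30.6% of all tested genes (15.3% called higher and 15.4% lower). Foxa1, a pioneer factor of liver enhancers, was at 0.791, 0.980 and 0.572 CPM without and at 4.385, 4.73 and 4.688 CPM with the added factors. Every library of the second group lay above every library of the first, as for 16.1% of features, and the authors' deposited table gave a log2 fold change of 1.92 (SE 0.19, DESeq2 adjusted p 3.47e-22). Hnf4g, an HNF4 family nuclear receptor gene, rose by 1.46 (SE 0.23) at a mean of 36.03 in the authors' deposited table (DESeq2 adjusted p 1.95e-09). Nr2f2 (0.38, SE 0.06) and Nr2f1 (0.42, SE 0.11), which encode COUP-TF receptors, and Zfhx3 (0.46, SE 0.09), which encodes ATBF1, a repressor of the Afp enhancer, were also higher in the authors' deposited table. The naming rule left out 3 called genes of the list, named here with their values in view. In the authors' deposited table Zhx2, the postnatal repressor of Afp (0.42, SE 0.13), and Hlf, a PAR bZIP factor gene (0.61, SE 0.21), were higher, and Trp53, encoding p53 (-0.20, SE 0.06), was lower. Cebpd, encoding C/EBP delta, fell by 0.76 on the log2 scale in the authors' deposited table (SE 0.13, DESeq2 adjusted p 2.73e-08). Foxa1 and Hnf4g were the 2 that exceeded an absolute log2 fold change of 1.

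Of the other liver factors, some were listed at or near 0 and others were expressed but not called. Hnf4a was listed at a mean of 0 in the authors' deposited table and Foxa2 at 0.761, and neither had an adjusted p. Foxa3 was at 0.114 ± 0.0791 without and 0.172 ± 0.0246 CPM with the added factors (SD, n = 3). Cebpa (0.23, SE 0.13) and Cebpb (0.11, SE 0.11), which encode C/EBP factors found in many tissues, were expressed and did not pass the threshold in the authors' deposited table. The same held for Tef (-0.17, SE 0.09, mean 2222), Zbtb20 (0.19, SE 0.09, mean 1514), Dbp (-0.001, SE 0.10, mean 734.5) and Prox1 (0.25, SE 0.18, mean 102.9). The plot of these factors shows Foxa1 and Hnf4g apart from the rest.

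**Figure D4:**
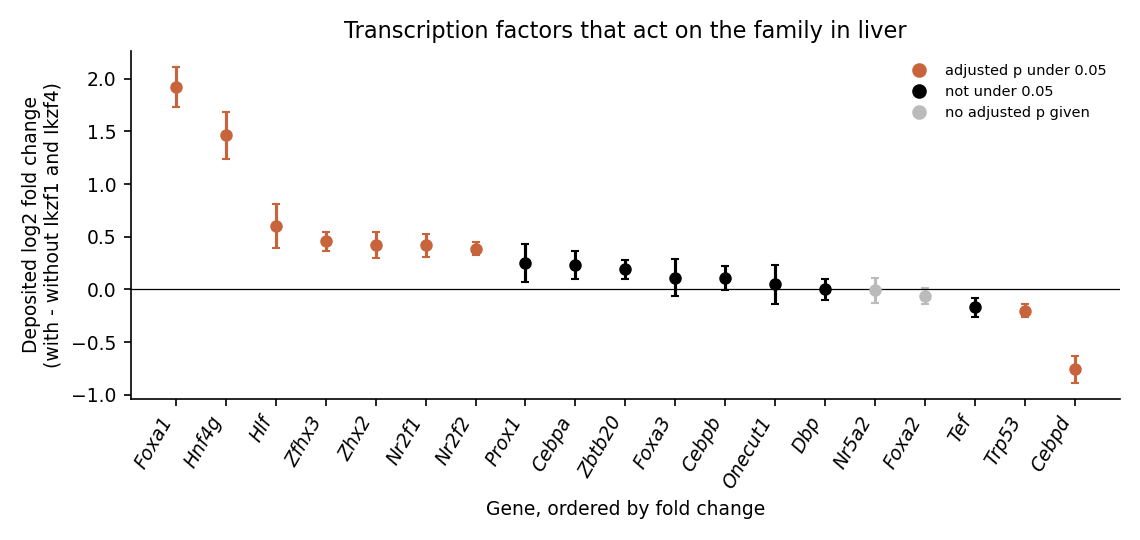
Log2 fold change with its standard error in the authors' deposited table (vertical axis, with minus without Ikzf1 and Ikzf4) for the listed transcription factors with a mean above 0, ordered by value (horizontal axis), with orange for an adjusted p under 0.05, black for a higher adjusted p and grey for none given. Foxa1 at 1.92 and Hnf4g at 1.46 were highest and Cebpd at -0.76 lowest.

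Other plasma proteins of hepatocytes and yolk sac were mostly too low to assess. Of 24 such genes, 8 had an adjusted p in the authors' deposited table and 0 were called at the threshold of its DESeq2 adjusted p, beside 30.6% of all tested genes (15.4% lower), a small number from which nothing is read. Means of 0 were listed for 5 of them, among which were Ttr, Fgb and Fgg, and means between 0 and 5 for 11 more. Serpinc1, encoding antithrombin, was at 0.00 (SE 0.23) in the authors' deposited table, and Trf, encoding transferrin, at 0.02 (SE 0.15). C3, encoding complement component 3, was at 1.203, 1.352 and 1.349 CPM without and 2.071, 2.093 and 1.867 CPM with the added factors. The groups of C3 did not overlap, as for 16.1% of features in the upward direction, and it did not pass the threshold in the authors' deposited table (0.44, SE 0.20, DESeq2 adjusted p 0.07712).

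Markers of other cells that the cultures could hold are given beside the fall of Gc, where 30.6% of all tested genes were called. Of 10 hepatocyte markers, 3 were listed at 0 in the authors' deposited table (Ttr, Fgb and Hnf4a), 4 at means under 5, and 0 of the 3 with an adjusted p were called. Of 8 visceral endoderm markers, 1 was listed at 0, 5 at means under 5, and the 1 called lower was Dab2, which fibroblasts express as well. Of 6 macrophage markers, all had an adjusted p and 0 were called. Lyz2, the most abundant of them, was at 316.4 ± 56.1 without and 334.2 ± 14 CPM with the added factors (SD, n = 3). No endothelial or skeletal muscle marker was called, of 5 and 1 with an adjusted p in the authors' deposited table. Of 7 mesothelial markers, 5 had an adjusted p and Krt19 was called higher (0.61, SE 0.17) in the authors' deposited table, while of 6 neuronal markers Tubb3 was called lower (-0.42, SE 0.10).

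All 10 markers of the labelled cell type, fibroblasts, were expressed, Col1a1 at a mean of 120200 normalised reads in the authors' deposited table. Most of these markers were lower together with Gc. Of the 10 in the authors' deposited table, 7 were called lower and 0 higher, beside 15.4% of all tested genes called lower, with a median of -0.382. The median mean of these markers was 40391.0 normalised reads, against 676.0 over all tested genes, so the shares are not compared at like levels of expression. The lowest in the authors' deposited table were Dcn, encoding decorin (-1.77, SE 0.08), and Col3a1, encoding a collagen III chain (-1.29, SE 0.06), followed by Postn (-0.63, SE 0.08), Thy1 (-0.53, SE 0.07), Col1a2 (-0.38, SE 0.06) and Col1a1 (-0.38, SE 0.06). Lum (-0.23, SE 0.17), Pdgfra (0.03, SE 0.12) and Fn1 (0.14, SE 0.07) were not called in the authors' deposited table. The part of a change in fibroblast content in the fall of Gc was not tested.

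Chromatin over the family was read in the 2 retina libraries, which played no part in choosing it. ATAC fragments mark DNA open to a transposase. The control library held 52119123 fragments and the Ikzf1/4 library 29358834, and 3 barcodes with at least 3000 fragments occurred in both. At the start sites of the Muller glia marker genes Slc1a3, Rlbp1 and Glul, the density of fragments within 1 kb stood at the 48.0, 51.05 and 93.5 percentiles of genes in the control. In the Ikzf1/4 library it stood at the 45.69, 44.77 and 90.13 percentiles. With 1 library per group there is no test, and the intervals cover counting error only.

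The 4 genes were among the sparsely covered ones. Over each gene with 2 kb on both sides, the density in the control was 0.237 CPM per kb for Gc, 0.265 for Alb, 0.363 for Afp and 0.217 for Afm. The median of 21371 genes was 0.563, and the members stood at the 9.80, 12.78, 24.37 and 7.63 percentiles. In the Ikzf1/4 library the densities were 0.269, 0.33, 0.41 and 0.204, against a median of 0.59. Low density was shared by the region, as every listed neighbour except Cox18 lay below the median in both libraries. Npffr2 (0.296) and Slc4a4 (0.321) stood at the 16.37 and 19.42 percentiles in the control. Within 1 kb of the start sites the control and Ikzf1/4 libraries gave 37 and 29 fragments for Gc, 22 and 13 for Alb, 25 and 21 for Afp, and 29 and 14 for Afm. Among the neighbours with a start site given, the fragments ranged from 35 and 21 for Albfm1 to 661 and 570 for Ankrd17, a broadly expressed gene.

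Scaled to all fragments, the control gave Gc 10.53 CPM (9.67 to 11.4) and the Ikzf1/4 library gave it 11.92 (10.7 to 13.2). Divided by the control, this is 1.13 for Gc (0.987 to 1.3). The same quotient came to 1.25 for Alb (1.03 to 1.5), 1.13 for Afp (0.964 to 1.32) and 0.941 for Afm (0.798 to 1.11). The interval of Alb lay above 1 and those of the other members included it. Over 20692 genes with at least 20 fragments in both libraries the ratio had a median of 1.06, with 0.731 and 1.33 at the 5 and 95 percentiles, and all 4 members lay inside that range. Among the 25% of genes lowest in density the median was 0.902 and the 95 percentile 1.25, just above Alb. Over the gene body alone Alb (1.24) lay above the 95 percentile of such genes (1.21), and likewise with 10 kb on both sides (1.21 against 1.16).

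Counting only barcodes with at least 3000 fragments (1964 control and 762 Ikzf1/4 barcodes) gave higher ratios for the members. No doublet caller was run, so these barcodes can include doublets. The ratios were 1.44 (1.12 to 1.85) for Gc, 1.73 (1.25 to 2.4) for Alb, 1.44 (1.11 to 1.87) for Afp and 1.72 (1.25 to 2.38) for Afm, which turned from below to above 1. They rest on 67 to 119 fragments per gene in the control, with 96 to 142 for Ikzf1/4. Over all genes with at least 20 fragments in both libraries the same ratio had a median of 0.981, with 0.724 and 1.38 at the 5 and 95 percentiles, and all 4 members lay above that range. This did not hold in every window, since Afp (1.33) lay below the 95 percentile (1.42) over the gene body alone, and Gc (1.26) below it (1.35) with 10 kb on both sides. Among the 25% of genes lowest in density the median was 1.02 and the 95 percentile 1.62, with Alb and Afm above that value and Gc and Afp below it. With 10 kb on both sides Afm (1.43) lay below the 95 percentile of such genes (1.61) as well. With 2 kb on both sides Afp stood at the 24.25 percentile of density in the control and the 33.5 in the Ikzf1/4 library, and Alb at 14.66 and 27.99. Whether Afp and Alb belong to the 25% lowest in density was not settled here. Of the 7 neighbours, 5 were above 1 as well, from 1.13 for Adamts3 (1.05 to 1.22) and 1.18 for Slc4a4 (1.1 to 1.26) to 1.23 for Npffr2 (1.02 to 1.47) and Rassf6 (0.996 to 1.51), with Ankrd17 at 1.22 (1.13 to 1.31). Albfm1 was at 0.979 (0.805 to 1.19) and Cox18 at 0.883 (0.779 to 1). All 7 neighbours lay inside the 5 to 95 percentile range of all genes. Compared with all fragments, the ratio in these barcodes was higher for the 4 members and for 3 neighbours, and lower for the other 4 neighbours. These barcodes held 18012580 of 52119123 fragments in the control and 14923394 of 29358834 in the Ikzf1/4 library. Within 1 kb of start sites the median ratio over genes was 0.9315 in these barcodes and 1.177 over all fragments. The part of these differences between the libraries in the ratios of the members was not tested.

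**Figure D5:**
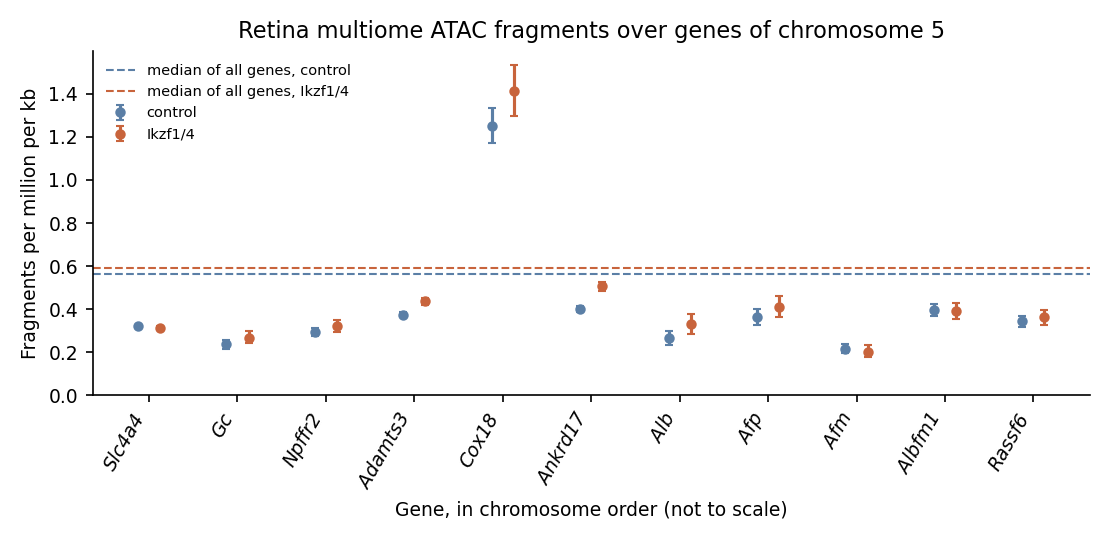
Retina ATAC fragments (CPM per kb, vertical axis, from 0) over each gene with 2 kb on both sides, in chromosome order (horizontal axis, not to scale), for 1 control (blue) and 1 Ikzf1/4 library (orange), with 95% Poisson intervals for counting error and dashed lines at the median of all genes. All 4 members lay below both medians, with Afm lowest at 0.217 and 0.204. Every neighbour except Cox18, which lay above them, was below both medians as well.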

How the data were processed

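RNA-seq was compared in 3 fibroblast libraries with Brn2 and Myt1l and 3 with Ikzf1 and Ikzf4 added. Per the labels, the authors deposited salmon estimated counts and TPM per Ensembl transcript, with other values such as the effective length per the file headers, and a DESeq2 table per gene. Per the file headers, each gene of the authors' table has its mean normalised signal, log2 fold change, standard error, Wald score, p-value and adjusted p. Neither the salmon version, the annotation release nor any shrinkage of fold changes is stated. Retina fragment files (mm10, cellranger-arc 2.0.1, per the file headers) were deposited as counts of read pairs per fragment, and each fragment was counted once. The members and lists were chosen with earlier results of these data known.

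The sources used here pair no transcripts with genes. Transcripts were therefore matched to genes by value, a step chosen after the files were seen. Gene means were recomputed from the estimated counts with size factors read from the authors' means, and a match required a relative difference under 1e-08. This matched 5256 genes to 1 transcript, Alb among them, and the best of 720 orders of size factors gave 3208 matches (the next 52) among genes with higher means. Gc, Afp and Afm were each matched to a sum of 2 transcripts. Pairs had to match within 2e-09. For Gc 1 of 90537 pairs did, the first transcript being limited to those that fell, and no other came within 1e-06. For Afm 1 of 206141558 pairs did, and a further pair came within 1e-08. For Afp 2 of 280900212 did, and the one with whole read sums in every library was taken, a criterion chosen after the values were seen. The pair taken for Gc does not meet that criterion. So many pairs were compared that 329 came within 1e-06 for Afm (13 with whole sums) and 466 for Afp (12 with whole sums). The reads per library of Afp and Afm are therefore uncertain. The search for Gc was smaller and limited to transcripts that fell, and for Alb no pairs were compared. The certainty of the members was thus not assessed alike. The mean of Albfm1 was not matched. Some listed items are not reported here.

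Estimated counts, summed where matched, were rounded. After filterByExpr and TMM scaling, the quasi-likelihood test of edgeR 4.0.16 (R 4.3.3) was adjusted by Benjamini-Hochberg over 43526 transcripts and matched genes, at a threshold of 0.05. The test planned per gene thus ran mostly per transcript, with list calls taken from the authors' table. edgeR called 3095 (7.11%), 1248 of them lower (2.87%), and 9608 had an unadjusted p under 0.05. Tested on simulated counts for these 43526 features, it recovered 37 of 100 features changed by 1 in log2 and 54 of 100 changed by 2, and 7 of its 98 calls were false. DESeq2 1.42.0 and limma 3.58.1 were alternatives. Named genes were the members, the listed neighbours, list genes that passed (the 6 with the smallest adjusted p where more did), the 5 genes most like Gc and, as values only, list genes that did not pass. Zhx2, Hlf, Trp53, Apoa1 and the Muller glia markers Slc1a3, Rlbp1 and Glul were named outside this rule. Retina windows and promoters used RefSeq GRCm38.p6, and a ratio's interval was exact binomial at 95%. Fibroblast ATAC peaks at the loci were not analysed here: the lists run to 197160924 on chromosome 1, past its last gene in GRCm38.p6 (195291439), and no gene table of another build was used.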

Additional observations from a re-analysis of the deposited data

How the results depend on the processing

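The count of calls by edgeR (3095) moved with the processing. It was 1849 with no low-count filter, 7372 with DESeq2, and 728 to 1701 when each library was left out in turn, lowest without replicate 2 with Ikzf1 and Ikzf4 and highest without replicate 3 with Brn2 and Myt1l alone, each such fit having fewer samples. For the other moved counts the cause was not tested. RLE scaling (2959) and limma-trend (3543) stayed within 1.5 times. With the replicate number as a block edgeR called 8, and Gc was at -3.14 (SE 0.08, against 0.17 without the block). Deviations of same-numbered libraries correlated at -0.0213, -0.00449 and 0.000145, and those of differently numbered libraries at -0.00873 to 0.0133. Over all features these values gave no sign of pairing by number, although Gc itself rose with the replicate number in both groups. The correlations cannot show whether libraries shared a culture. Leaving out each library put the log2 fold change of Gc between -3.25 and -3.01, and log2(CPM + 2) put it at -2.63, where the larger pseudocount shrinks a low level. Requiring an absolute log2 fold change over 1 as well left 0 vitamin D genes (of 2), 0 albumin uptake and actin genes (of 4), 2 regulators (of 9) and 1 neighbour (of 2). In retina barcodes with at least 3000 fragments the ratios were 1.44 for Gc, 1.729 for Alb, 1.44 for Afp and 1.722 for Afm, and the cause was not tested. In all, 22 of 40 recomputed values stayed within their limits. The planned results on ATAC peaks at the loci and over the genome, and their alternatives, were not run. Alb, Afp and Afm had at most 5 reads per library at the depth sequenced.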

Other observations

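Apolipoprotein A-I, a plasma protein of liver and yolk sac, was also at the edge of detection. Apoa1 had 0 reads in the 3 libraries with Brn2 and Myt1l alone, and 0, 2 and 5 reads with Ikzf1 and Ikzf4 added. Its mean in the authors' deposited table was 1.135 normalised reads, with a log2 fold change of 0.09 (SE 0.08) and no adjusted p. The gene was singled out after its values were seen, and at this depth the groups overlapped at 0.

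The keratin and mesothelial genes gave mixed values. Krt18 was at 1.275 ± 0.159 without and 1.223 ± 0.257 CPM with the added factors (SD, n = 3), Upk3b at 0.475 ± 0.0174 and 0.568 ± 0.201 CPM. Msln was at 0.09 (SE 0.21) and Wt1 at 0.30 (SE 0.23) in the authors' deposited table, and neither passed the threshold of its DESeq2 adjusted p.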
